A study of Mus musculus with 2 samples.

Results

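Osteopontin (Spp1), its receptor CD44 (Cd44) and 7 integrin subunits that take part in binding it or its partners in the matrix (Itgav, Itgb1, Itgb3, Itgb5, Itga4, Itga5 and Itga8) were followed by gene symbol. They are 9 of the 32285 genes measured. They were picked by name and role, at a time when earlier results of these data were known. The study hashed 4 cultures of mouse aortic vascular smooth muscle cells (VSMCs), mixed them and sequenced 1 droplet library of single cells. All cells were cultured primary cells of C57BL/6 mice bought from commercial suppliers. The sources used here do not say which supplier's cells entered this library. Tag 1 stands for untreated young cells (12 weeks), tag 2 for old cells (58 to 78 weeks), tag 3 for young cells given 100 nM angiotensin II (AngII) for 48 h, and tag 4 for old cells given 20 nM siPiezo1 over 48 h per the labels, where the study's text also gives another concentration. These names follow numbers in a schematic of the study and are not stated in the sample labels, and tag numbers are therefore given throughout. The protocol names a non-targeting siRNA pool, and for another assay the study describes its old cells as treated with it. Whether the old cells of tag 2 received it is not stated for this library.

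Osteopontin is a secreted, phosphorylated glycoprotein that binds mineral and cells, and it is known as a marker of VSMCs that have left the contractile state. Integrins are pairs of an alpha and a beta subunit that join the matrix to the actin cytoskeleton. Osteopontin is bound through its RGD motif by pairs such as αvβ3, αvβ5, αvβ1, α5β1 and α8β1, and through a neighbouring motif by α4β1. CD44 is the main receptor for hyaluronan and, in some of its spliced forms, also binds osteopontin. A library of 3′ ends counts 1 end per transcript, so spliced forms of CD44 could not be told apart.

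By identifier, and in GENCODE vM21 coordinates (GRCm38), Spp1 lies at chr5:104435118-104441050 on the plus strand. Of the receptor genes, 4 share chromosome 2 with each other: Cd44 (chr2:102811141-102901665, minus), Itgav (chr2:83724397-83806916, plus), Itga4 (chr2:79255426-79333123, plus) and Itga8 (chr2:12106632-12301922, minus). Itgb1 lies at chr8:128685654-128733200 (plus), Itgb3 at chr11:104608000-104670476 (plus), Itgb5 at chr16:33829665-33949338 (plus) and Itga5 at chr15:103344286-103366763 (minus). All 9 are protein-coding genes. RefSeq promoter windows of 250 bases before to 50 after the start (GRCm38.p6) matched 8 of them. On both strands they were searched for TGANTCA (AP-1), TGTGGT (RUNX) and GGAATG (TEAD), which are held by 7.81%, 16.8% and 14.7% of all 32851 windows. Spp1 and Itga4 each held the RUNX letters on the opposite strand, 128 and 60 bases before the start, and no other matched window held them. Spp1 had 2 windows, and that nearest its start was used. Itgb1 held the TEAD letters 7 bases before its start. The windows with RUNX letters, of Spp1 (chr5:104434861-104435160, plus) and Itga4 (chr2:79255176-79255475, plus), are shown with the matched letters in capitals. A link between these letters and the levels of the genes was not tested. A match describes the letters and shows no binding.
Spp1: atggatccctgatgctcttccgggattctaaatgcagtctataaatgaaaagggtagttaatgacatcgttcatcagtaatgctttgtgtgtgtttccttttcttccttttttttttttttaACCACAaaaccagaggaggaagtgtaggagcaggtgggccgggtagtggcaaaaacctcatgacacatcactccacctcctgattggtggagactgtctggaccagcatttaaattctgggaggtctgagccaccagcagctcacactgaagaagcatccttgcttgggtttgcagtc
Itga4: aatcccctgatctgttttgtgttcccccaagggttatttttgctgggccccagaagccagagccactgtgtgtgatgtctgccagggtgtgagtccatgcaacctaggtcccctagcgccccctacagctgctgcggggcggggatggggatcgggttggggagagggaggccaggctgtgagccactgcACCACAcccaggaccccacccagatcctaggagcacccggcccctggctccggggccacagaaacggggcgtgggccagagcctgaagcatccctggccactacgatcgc

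Barcodes with at least 2218 transcripts (counted as unique molecular identifiers, UMIs) and 200 genes were used as cells, which left 13045 cells with 115033686 UMIs. A cell belonged to a tag when only that tag passed its cutoff. Tag 1 held 3144 cells, tag 2 497, tag 3 1500 and tag 4 1529, with median depths of 6816.5, 10663, 9453.5 and 9792 UMIs, and 5307 cells (40.7%) carried no tag. The median of a cell's own tag was 364, 76, 113 and 67 UMIs, against 10, 15, 31 and 20 UMIs of these tags in cells without a tag, so tags 2 to 4 stood less clear of background. Each tag was 1 culture, so no test between tags was possible, and all intervals given are 95% intervals of counting error only. Piezo1 itself held 89.6 CPM in tag 2 and 86.9 CPM in tag 4 (ratio 0.969, 0.874 to 1.08), so the siRNA's target gives no check on tag 4, named below as the cells labelled siPiezo1. Xist was 5.64 times higher in tag 2 than in tag 1 and 1.05 times in tag 3 than in tag 1. Cells with Y-linked and no Xist UMIs made up 54.1% of tag 1, 19.5% of tag 2, 55.5% of tag 3 and 13.8% of tag 4, so cells with male and with female transcripts were spread unevenly over the tags. In the comparison of tags 2 and 1, age, sex and culture cannot be told apart. In those of tags 3 and 1 and of tags 4 and 2, treatment and culture cannot be told apart. Cells with Xist and no Y-linked UMIs made up 4.90% of tag 1 and 6.27% of tag 3. How many of these carry a wrong tag was not tested.

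Spp1 was among the most abundant transcripts of every culture, and it was lowest in the untreated young cells. CPM is a gene's UMIs summed over the cells of a tag per 1000000 UMIs, and since each transcript gives 1 end, it was not divided by length. Spp1 was at 3418 CPM in young cells (tag 1), 8229 CPM in old cells (tag 2), 5782 CPM in AngII-treated young cells (tag 3) and 9233 CPM in the cells labelled siPiezo1 (tag 4). The 4 exact Poisson intervals did not overlap, and the order from low to high was tag 1, tag 3, tag 2 and tag 4. By rank among all genes Spp1 was in place 27, 5, 8 and 4 in tags 1 to 4, and in tag 4 it took 0.923% of all UMIs. Cells without a tag were at 9237 CPM, within the interval of tag 4 (9186 to 9280). The 1299325 near-empty barcodes (1 to 100 UMIs), whose UMIs are mostly free RNA, held Spp1 at 6380 CPM. Free RNA was estimated from the Xist UMIs of 329 tag 1 cells with at least 3 Y-linked UMIs and not called doublets. It came to 3.46% of their UMIs, which amounts to 221 CPM of Spp1. The share in other cells was not estimated.

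Cd44 followed another order, with its highest level in the AngII-treated cells. It was at 306 CPM in tag 1 (299 to 313), 399 CPM in tag 2 (383 to 416), 514 CPM in tag 3 (503 to 526) and 395 CPM in tag 4 (386 to 405). Only the intervals of tags 2 and 4 overlapped. Cells without a tag held 365 CPM of Cd44. At the share estimated in cells of tag 1, free RNA would bring 9.65 CPM.

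Among the beta subunits, Itgb1, the partner of most alpha subunits listed here, was by far the most abundant. Its level was 729 CPM in tag 1, 643 CPM in tag 2, 956 CPM in tag 3 and 593 CPM in tag 4, with 4 intervals that did not overlap. Tag 3 was the highest, as for Cd44, but the old cells were below the young ones. Itgb5, which pairs with Itgav, was at 69.7 CPM in tag 1, 59.7 CPM in tag 2, 76.5 CPM in tag 3 and 55.6 CPM in tag 4. From low to high the order was tag 4, tag 2, tag 1 and tag 3. The interval of the ratio held 1 for tag 4 to tag 2 and lay clear of it for tags 2 and 3 against tag 1. Itgb3, the partner of Itgav in the classical vitronectin receptor, was scarce: 76 UMIs in tag 1 (3.15 CPM), 27 in tag 2 (4.84 CPM), 78 in tag 3 (5.22 CPM) and 60 in tag 4 (3.73 CPM). Of the Itgb3 intervals only those of tags 1 and 3 did not overlap.

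The alpha subunits fell into abundant and scarce genes. Itgav, the alpha subunit shared by the vitronectin-type receptors, was at 159 CPM in tag 1, 161 CPM in tag 2, 224 CPM in tag 3 and 155 CPM in tag 4. The intervals of tags 1, 2 and 4 overlapped and tag 3 lay above them. Itga5, which with Itgb1 forms the fibronectin receptor, was at 116 CPM in tag 1, 72.6 CPM in tag 2, 204 CPM in tag 3 and 66.1 CPM in tag 4. Tags 2 and 4 overlapped at the low end, and tag 3 was the highest. Itga4, known from leukocytes and as a receptor of VCAM-1 and fibronectin, had the opposite order: 5.02 CPM in tag 1 (121 UMIs), 15.6 CPM in tag 2 (87 UMIs), 3.21 CPM in tag 3 (48 UMIs) and 16.2 CPM in tag 4 (261 UMIs). The intervals of tags 2 and 4 overlapped with each other, as did those of tags 1 and 3, and the pairs stood apart. Itga8, an alpha subunit typical of contractile smooth muscle, was at 4.60 CPM in tag 1, 6.81 CPM in tag 2, 1.94 CPM in tag 3 and 7.76 CPM in tag 4. Tag 3, with 29 UMIs of Itga8, lay below tags 1, 2 and 4.

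**Figure D1:**
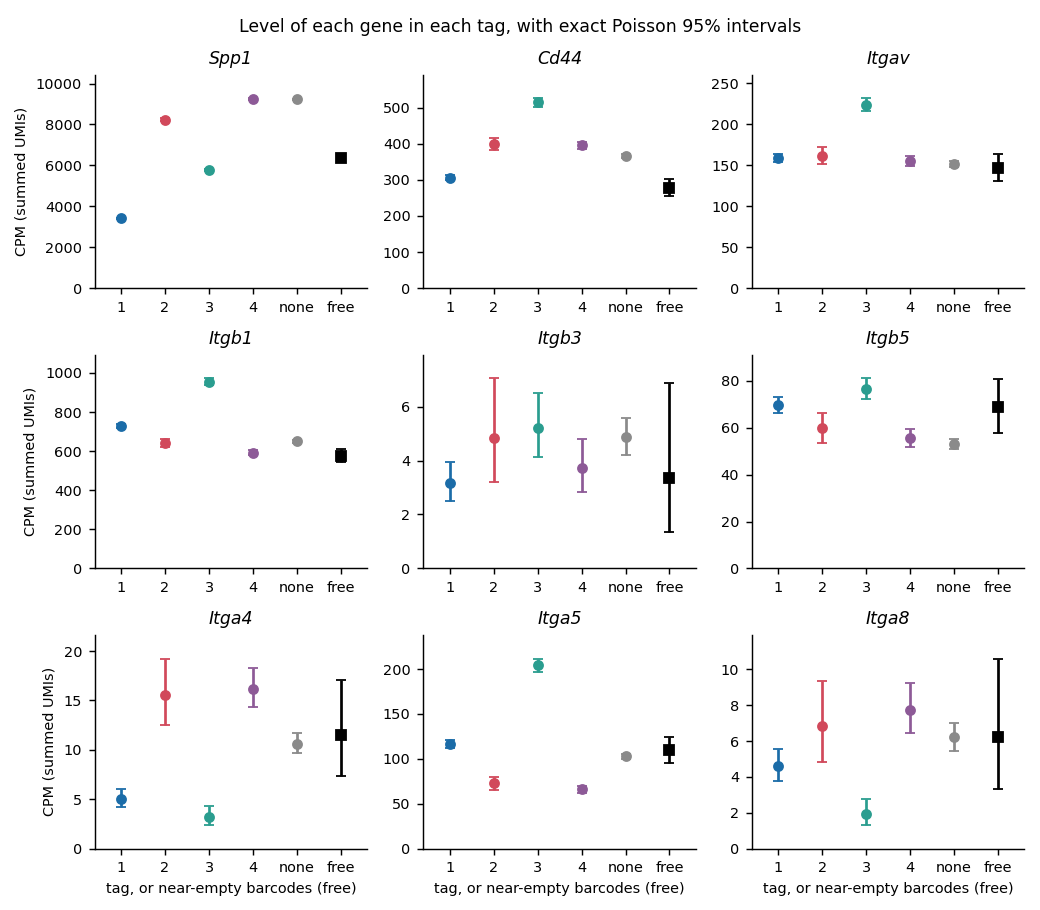
Level of the 9 genes in CPM (y axis, from 0) in tags 1 to 4, in cells without a tag (none) and in near-empty barcodes (free, squares), with exact Poisson 95% intervals. Spp1 was lowest in tag 1 (3418 CPM), Cd44, Itgav, Itgb1 and Itga5 were highest in tag 3, and Itga4 was higher in tags 2 and 4 than in tags 1 and 3.

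For the comparison of old with young cells (tag 2 to tag 1), the ratio of CPM was 2.41 for Spp1 (2.38 to 2.44) and 1.30 for Cd44 (1.24 to 1.37). Itgav was at 1.01 (0.942 to 1.09), Itgb1 was at 0.882 (0.850 to 0.914), Itgb5 at 0.857 (0.759 to 0.964) and Itga5 at 0.624 (0.561 to 0.693). Of the 9 genes, 6 reached 10 CPM in the pool and could be set beside the 8462 genes at this level. Of these 6, 1 was at least 1.5 times higher (Spp1), against 8.34% of all genes, and 1 was at or below 1 in 1.5 (Itga5), against 9.83% of all genes. Spp1 had a higher ratio than 98.3% of the genes and Itga5 a higher one than 7.89%. Among the scarce genes, Itga4 had a ratio of 3.11 (2.33 to 4.13), while the intervals of Itgb3 (1.54, 0.952 to 2.41) and Itga8 (1.48, 0.996 to 2.16) included 1. Among cells with Xist and no Y-linked UMIs (154 of tag 1, 313 of tag 2) the Spp1 ratio was 1.14 and that of Itga4 was 2.04, and without cells called doublets Itga4 was at 4.93 and Cd44 at 1.502. Itga5 was at 0.782 in cells with Y-linked and no Xist UMIs, short of 1 in 1.5. Itga8 was at 2.25 after thinning, 2.49 in cells with Y-linked and no Xist UMIs and 0.627 in cells with the reverse, and Itgb3 was at 0.877 where a cell's own tag had at least 3 times the UMIs of the next.

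AngII-treated and untreated young cells (tag 3 to tag 1) differed in more of the 9 genes, and mostly towards higher levels in tag 3. With 1 culture per tag, AngII and culture cannot be told apart in these ratios. The ratio was 1.69 for Spp1 (1.68 to 1.71), 1.68 for Cd44 (1.63 to 1.74), 1.76 for Itga5 (1.67 to 1.85), 1.41 for Itgav (1.34 to 1.47), 1.31 for Itgb1 (1.28 to 1.34) and 1.10 for Itgb5 (1.02 to 1.18). Of the 6 genes set beside the others, 3 were at least 1.5 times higher (6.90% of all genes) and 0 were at or below 1 in 1.5 (7.59% of all genes). Their median ratio was 1.54, against 1.03 over all genes. Itga8 (0.422, 0.270 to 0.640) and Itga4 (0.641, 0.449 to 0.902) were lower in tag 3, and Itgb3 was higher (1.66, 1.19 to 2.30). In the 1700 cells of tag 1 and 833 of tag 3 that had Y-linked but no Xist UMIs, Spp1 was at a ratio of 2.01. In the fewer cells with Xist but no Y-linked UMIs (154 and 94) it was at 0.882, with Cd44 at 1.31, Itga5 at 1.29 and Itga4 at 1.22. Without cells that held a dividing cell marker, Itgb3 was at 2.49, Itga4 at 0.350 and Itga8 at 0.186.

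Between the cells labelled siPiezo1 and old cells (tag 4 to tag 2), 0 of the 6 genes passed 1.5 times in either direction, where 1.77% of all genes were higher and 0.945% lower. Spp1 was at 1.12 (1.11 to 1.13), Cd44 at 0.991 (0.944 to 1.04), Itgav at 0.962 (0.891 to 1.04), Itgb1 at 0.923 (0.888 to 0.959), Itgb5 at 0.931 (0.820 to 1.06) and Itga5 at 0.910 (0.811 to 1.02). Of the scarce genes, the intervals of Itgb3 (0.770, 0.481 to 1.26), Itga4 (1.04, 0.812 to 1.34) and Itga8 (1.14, 0.787 to 1.68) held 1. Piezo1 differed between these tags by less than counting error. In cells with Y-linked but no Xist UMIs Itga4 was at a ratio of 0.446 and Itga8 at 0.543, and after thinning Itga8 was at 0.632. The comparisons share tag 1 or tag 2, so they are not independent of each other.

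**Figure D2:**
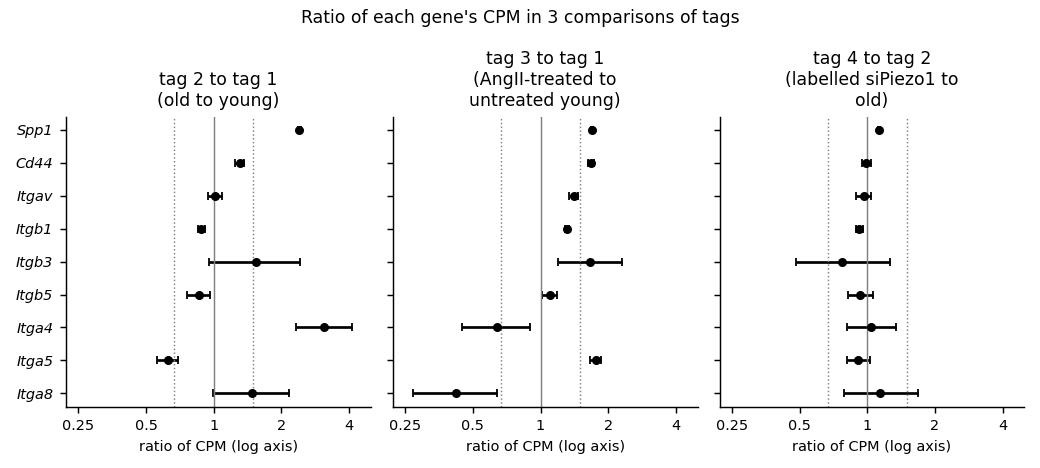
Ratio of CPM (x axis, log scale) of the 9 genes in 3 comparisons of tags, with exact binomial 95% intervals of the counts. Solid lines mark 1 and dotted lines 1.5 times in either direction. Spp1, Cd44 and Itga5 lie past 1.5 in the comparison of tag 3 with tag 1, and the 6 abundant genes all lie inside the dotted lines between tags 4 and 2.

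Osteopontin is also made by macrophages and some epithelial cells, so markers of other cell types were read beside it. Macrophage markers summed to 19.7, 19.5, 16.2 and 26.1 CPM in tags 1 to 4. C1qa was at 0 in the whole pool, which allows up to 3 UMIs, and Ptprc had 8 UMIs in 13045 cells. Of the 8 macrophage markers only Cd14 reached 10 CPM in the pool. It was at 8.29, 12.0, 4.49 and 19.9 CPM in tags 1 to 4. Endothelial markers summed to 8.42, 6.28, 3.75 and 4.97 CPM with Tie1 at 0, and epithelial markers to 21.0, 25.3, 37.6 and 18.7 CPM. The 8 VSMC markers were detected in all 4 tags and summed to 903, 1708, 1086 and 687 CPM. They were highest in the old cells of tag 2 (8229 CPM of Spp1) and lowest in tag 4, where Spp1 was highest (9233 CPM). Tag 1, where Spp1 was lowest (3418 CPM), had the next lowest sum after tag 4. The sum of tag 3 exceeded that of tag 1 mostly through Tagln (698 against 415 CPM). Smtn was also higher in tag 3 (ratio 1.37). Acta2 (0.777), Cnn1 (0.412) and Myl9 (0.910) were lower there, and the interval of Lmod1 (0.927) held 1. Fibroblast markers summed to 524, 545, 722 and 748 CPM, of which Dcn supplied most UMIs. Dividing cell markers summed to 543, 548, 407 and 613 CPM, and osteochondrogenic markers to 126, 101, 137 and 107 CPM. Of the osteochondrogenic markers only Runx2 and Sox9 reached 10 CPM in the pool, and they followed different orders. Runx2 was at 56.6, 67.8, 73.4 and 69.3 CPM and Sox9 at 68.6, 32.3, 61.2 and 36.8 CPM. The part of the VSMC, fibroblast and dividing cell markers in the values of Spp1 was not tested.

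Of the other 19 integrin subunits, all of which had UMIs in the pool, only Itga6, a laminin receptor subunit, reached 10 CPM in the pool. Itga6 was at 11.5 CPM in tag 1, 26.2 CPM in tag 2, 47.3 CPM in tag 3 and 20.5 CPM in tag 4. It was therefore 2.27 times higher in tag 2 and 4.10 times higher in tag 3 than in tag 1, and 0.783 of the old level in tag 4. Itga9, a further alpha subunit known to bind osteopontin and named after its values were seen, was at 6.76 CPM in tag 1, 4.84 in tag 2, 16.3 in tag 3 and 6.58 in tag 4. The list sums to 57.4, 72.6, 105 and 66.0 CPM.

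Of 19 listed matrix ligands of these integrins, 15 reached 10 CPM. Over all genes at this level, 8.34% were higher and 9.83% lower in tag 2 to 1, and 6.90% and 7.59% in tag 3 to 1. For tag 4 to 2 these shares were 1.77% and 0.945%. In old against young cells 7 were at least 1.5 times higher and 4 at or below 1 in 1.5, with a median ratio of 1.25 (1.02 over all genes). The extremes were Edil3, an RGD ligand of αv integrins (ratio 2.80), and Fbn1, the microfibril protein fibrillin-1 (0.314). In tag 3 against tag 1, 4 were higher and 3 lower. Npnt, which encodes nephronectin, a ligand of α8β1, had the largest ratio in the comparison of tags 3 and 1 (3.40), while its receptor subunit Itga8 was at 0.422, and Edil3 had the smallest (0.507). Between tags 4 and 2, 0 ligands were higher and 1 was lower, Ccn2 (0.620), a matricellular protein also called CTGF. Col1a1 had the largest ratio there (1.20).

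Of 17 hyaluronan and CD44 partners, 13 reached 10 CPM. The shares of all genes higher and lower were 8.34% and 9.83% in tag 2 to 1, and 6.90% and 7.59% in tag 3 to 1. They were 1.77% and 0.945% in tag 4 to 2. In tag 2 against tag 1, 0 were higher and 2 lower, from Has2, a hyaluronan synthase (1.41), to Hmmr, a hyaluronan receptor of the mitotic spindle (0.636). In tag 3 against tag 1, Has2 was at 2.41, the 1 gene at least 1.5 times higher, and Hmmr at 0.388 was 1 of 2 lower. In tag 4 against tag 2, 1 was higher, Tnfaip6, which modifies hyaluronan (1.71), and 2 were lower, with Ezr, which links CD44 to actin, at 0.581. Has2 and Cd44 thus both had their highest level in tag 3, at 25.4 CPM for Has2.

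All 14 integrin adhesion adaptors reached 10 CPM. For these and the next list, the shares of all genes higher and lower were 8.34% and 9.83% in tag 2 to 1. They were 6.90% and 7.59% in tag 3 to 1, and 1.77% and 0.945% in tag 4 to 2. In old against young cells 1 was higher, Pxn or paxillin (1.71), and 2 were lower, with Tns1, the actin-binding adaptor tensin-1, at 0.214. In tag 3 against tag 1, 4 were higher, led by Pxn (1.82), and 0 lower. Tln2, a form of talin, was the smallest (0.679), and the median ratio was 1.24. Between tags 4 and 2, 0 passed in either direction, from Src (1.14) to Fermt2 (0.780). Of 6 genes on a list of proteases and a kinase tied to osteopontin, 3 reached 10 CPM. In the 3 comparisons 1, 2 and 1 of them were at least 1.5 times higher, with 0 lower. Plau, the urokinase plasminogen activator, was at 5.11 in the comparison of tags 2 and 1, Fam20c, the kinase of secreted proteins, at 1.79 in that of tags 3 and 1, and Mmp3, which cuts osteopontin, at 1.85 in that of tags 4 and 2. The smallest ratios of these 3 genes were 1.45 (Mmp3), 1.44 (Plau) and 0.908 (Fam20c) in the same order.

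Spp1 varied widely between the cells of one tag. To remove depth, each cell was thinned to 5000 UMIs, which left out shallower cells and kept 2397, 476, 1364 and 1415 cells of tags 1 to 4. The median cell then held 9 Spp1 UMIs in tag 1 (5th to 95th percentile 1 to 54), 38 in tag 2 (2 to 107.5), 20 in tag 3 (1 to 82.85) and 42 in tag 4 (8 to 112). The ranges of the tags overlapped broadly, and few cells of tag 4 were low. The variance was 23.4, 24.7, 31.5 and 21.6 times the mean, where counting alone gives a value near 1 and the median of 3287 genes with at least 50 CPM lay between 1.10 and 1.13. This measure grows with the level, and most of these genes were far scarcer than Spp1. Set beside the 49 other genes among the 50 most abundant of each tag, Spp1 had a larger value than 47, 45, 47 and 45 of them. Relative to the level, as the variance less the mean over the squared mean, Spp1 was at 1.39, 0.543, 1.08 and 0.426, above 49, 46, 49 and 41 of these genes. Thinned to 3000 UMIs, the value of tag 1 was 14.7. The top 10% of cells held 38.2% of the Spp1 UMIs in tag 1, 26.2% in tag 2, 34.1% in tag 3 and 24.8% in tag 4. The share was thus larger in the tags with the lower levels. Cells called doublets were kept here, and the spread without them was not measured. Before thinning, 2412, 389, 1165 and 1225 cells of tags 1 to 4 were not called doublets. They held 41939 of 82437, 34504 of 45897, 60452 of 86346 and 112853 of 148713 Spp1 UMIs.

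For Cd44 the variance was 1.53, 1.55, 1.94 and 1.66 times the mean in tags 1 to 4, at a far lower level than Spp1. Relative to the level, its excess variance was 0.350, 0.293, 0.364 and 0.357. The gap to Spp1 was thus wide in tags 1 and 3 and narrow in tag 4. The share of thinned cells with 0 UMIs of Cd44 was 29.7%, 21.4%, 15.1% and 24.1%. No cell type certain to lack Cd44 was found in the pool to set beside these shares. At the share estimated in cells of tag 1, free RNA would bring 9.65 CPM of Cd44, a small part of the level in each tag. The excess variance relative to the level was 0.193, 0.251, 0.213 and 0.2197 for Itgb1 and 0.430, 0.810, 0.573 and 1.02 for Itga5.

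**Figure D3:**
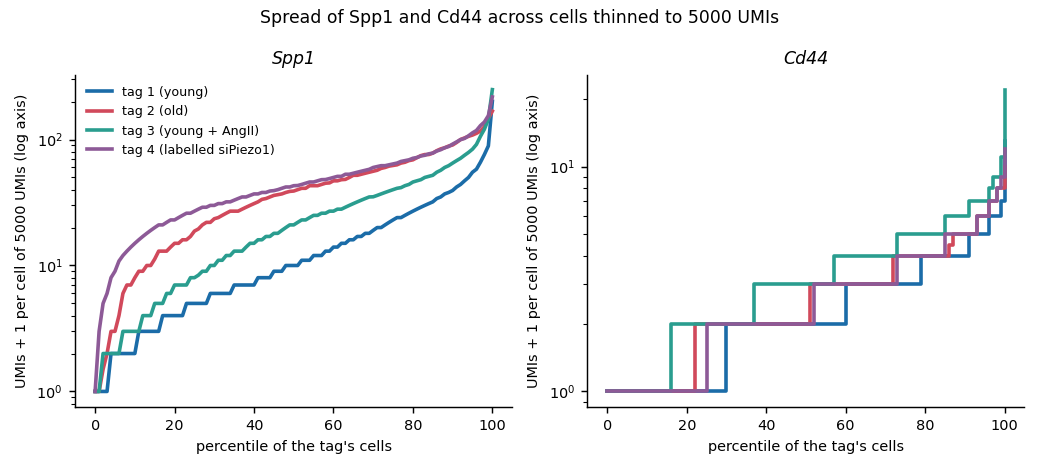
UMIs + 1 per cell (y axis, log scale) of Spp1 and Cd44 at each percentile of the cells of a tag (x axis), with every cell thinned to 5000 UMIs. At the median, Spp1 held 9, 38, 20 and 42 UMIs in tags 1 to 4, and Cd44 was at 0 UMIs in 15.1% (tag 3) to 29.7% (tag 1) of cells.

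Cells were then clustered without the 9 genes among the variable genes, which gave 14 clusters. The tags lay mostly in different clusters, except tags 2 and 4: clusters 2 and 7 held 72.3% of tag 1, clusters 3 and 5 held 78.7% of tag 3, and clusters 0 and 1 held 68.4% of tag 2 and 61.0% of tag 4. Cluster 0, led by Clu, Csf3 and Sorcs1, had the highest Spp1 level (12205 CPM), followed by cluster 9 (Lmo7, Klra4 and Platr16, 9645 CPM) and cluster 8 (9616 CPM), whose cells were shallow (median 3287.5 UMIs). Cluster 2, led by the interferon response genes Cxcl9, Ifit3 and Ifit3b, was at 2471 CPM. Cluster 7, led by the mitotic genes Cdkn3, Ckap2l and Ccnb2, was at 2023 CPM. Ifi206 was among the 10 leading genes of both, and 542 of the 580 cells of cluster 7 carried tag 1. Cluster 1, led by the dividing cell genes Hist1h1b, Mki67 and Kif23, held 7978 CPM of Spp1. Clusters 2, 7 and 11 (Cxcl10, Ifit3 and Oasl1) together held 77.4% of tag 1 and 0.2% of tag 3. The part of this in the ratios was not tested. Cluster 6, led by the contractile genes Actg2 and Cnn1, held 5874 CPM of Spp1, less than cluster 0 and more than clusters 2 and 7. The lowest level was 703 CPM in cluster 13, 38 cells led by Gpm6a, Tspan8 and Msln. Free RNA was estimated at 221 CPM in cells of tag 1, and its share in cluster 13 was not estimated.

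Cd44, Itgav, Itgb1, Itgb5 and Itga5 were highest in another cluster than Spp1. Cd44 had its highest level in cluster 12 (1131 CPM), 89 cells led by Zfp804a, Gm12153 and Gm12381, of which 46 carried tag 3. In this cluster Itga5 (439 CPM), Itgav (364 CPM), Itgb1 (1370 CPM) and Itgb5 (143 CPM) were also higher than in any other, while Spp1 was at 3912 CPM. Its cells had a median of 4252 UMIs. Clusters 3 and 5, where most AngII-treated cells lay, came next for Itga5 (211 and 236 CPM) and Itgb1 (938 and 981 CPM). Cluster 8 was lowest for Cd44 (100.2 CPM), Itga5 (21.0 CPM) and Itgb1 (359 CPM). Itga4 was highest in cluster 11 (27.6 CPM, 31 UMIs), cluster 6 (22.7 CPM, 152 UMIs) and cluster 1 (16.01 CPM, 313 UMIs). Itga8 was highest in cluster 11 (32.1 CPM, 36 UMIs), 173 cells led by Cxcl10, Ifit3 and Oasl1 with Cnn1 also among their 10 leading genes and 32.9% called doublets, and next in cluster 6 (9.71 CPM, 65 UMIs).

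In the clusters where a ratio could be formed, Spp1 in tags 2 and 3 lay closer to tag 1 than over all cells. Clusters 2, 7 and 11 gave no ratio, as they held 77.4% of tag 1 but 0% of tag 2 and 0.2% of tag 3. The tag 1 cells compared were thus a minority that grouped with other tags by their other genes. Their ratios do not describe the rest of tag 1. In cluster 0 Spp1 was at 13463 CPM in the 56 cells of tag 1, 11605 CPM in the 218 of tag 2, 12248 CPM in the 30 of tag 3 and 11366 CPM in the 545 of tag 4. The ratio of tag 2 to tag 1 was 0.862 in cluster 0, 1.13 in cluster 1 and 1.07 in cluster 4, against 2.41 over all cells. The ratio of tag 3 to tag 1 was 0.910 in cluster 0, 1.33 in cluster 3, 1.12 in cluster 4 and 1.001 in cluster 5, against 1.69. Cluster 4 holds 81.9% cells called doublets. Tag 1 has few cells in clusters 0, 1, 3 and 5 (between 32 and 76), and a wrong tag would also place such cells there. How many of them carry a wrong tag was not tested. For tag 4 against tag 2 the Spp1 ratio was 0.979 in cluster 0, 1.06 in cluster 1, 1.32 in cluster 4 and 1.38 in cluster 6, against 1.12 over all cells. Cd44 was higher in tag 3 than in tag 1 within cluster 3 (1.30, 1.15 to 1.47), cluster 4 (1.22, 1.13 to 1.31) and cluster 5 (1.31, 1.10 to 1.57), while in cluster 0 the interval held 1 (1.09, 0.824 to 1.43), against 1.68 over all cells. For tag 2 against tag 1 Cd44 was at 1.07 in cluster 0, 0.932 in cluster 1 and 0.9005 in cluster 4, each with an interval that held 1, against 1.30 over all cells. Itga5 had a ratio of tag 3 to tag 1 of 0.836 in cluster 0 (0.407 to 1.61), 1.04 in cluster 3 (0.868 to 1.25), 1.38 in cluster 4 and 1.53 in cluster 5 (1.17 to 2.04).

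**Figure D4:**
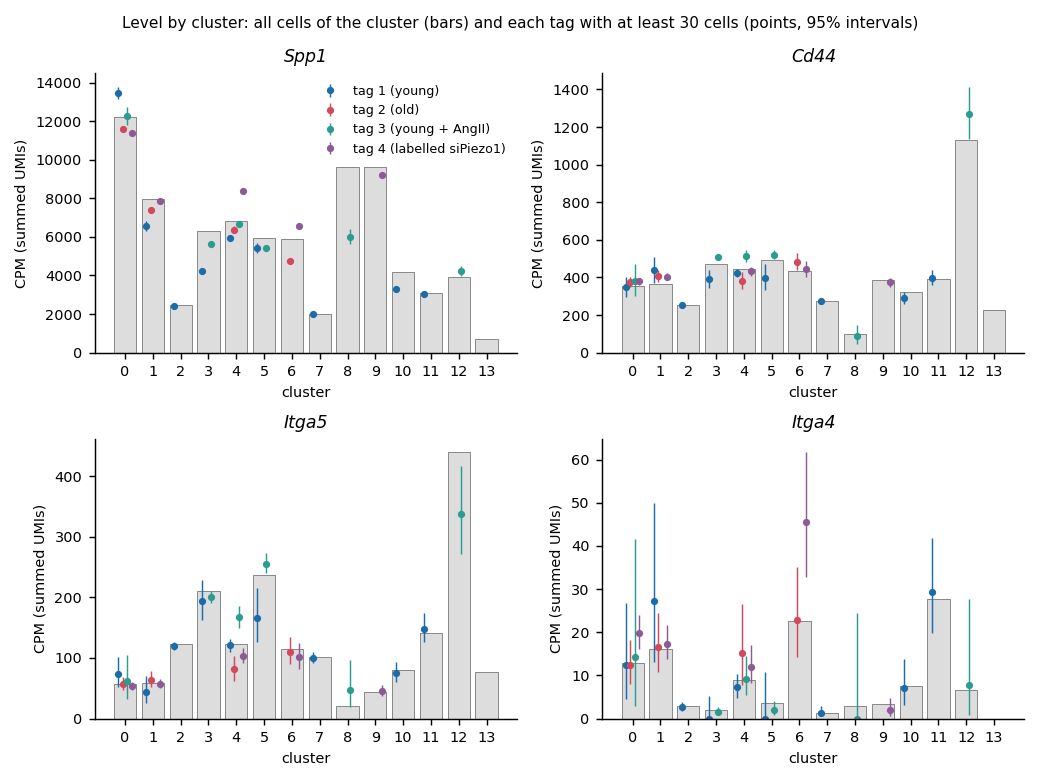
CPM (y axis, from 0) of Spp1, Cd44, Itga5 and Itga4 in 14 clusters (x axis). Bars give all cells of a cluster and points each tag with at least 30 cells there, with exact Poisson 95% intervals. Spp1 peaks in cluster 0 at 12205 CPM, where the 4 tags lie between 11366 (tag 4) and 13463 CPM (tag 1). The points of tags 1 and 3 there rest on 56 and 30 cells. Cd44 and Itga5 peak in cluster 12.

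Across the cells of 1 tag, the 9 genes were only weakly related, and these correlations describe sparse counts of cells that share 1 library and 1 depth. On log2(UMIs + 1) of thinned cells, Cd44 with Itgb1 had the highest median Pearson r of the 36 pairs (0.112, from 0.070 to 0.153 over the 4 tags). Spp1 with Itgb1 had the lowest (−0.142), with −0.093, −0.257, −0.140 and −0.144 in tags 1 to 4. Spp1 and Cd44 were at 0.109 in tag 1, 0.009 in tag 2, −0.060 in tag 3 and −0.096 in tag 4, weak values of either sign. Whether their relation differs between tags was not tested. UMIs of Itgav and Itgb1 were seen together in 48.6%, 50.2%, 65.0% and 46.3% of thinned cells of tags 1 to 4, against 48.3%, 49.8%, 64.6% and 46.2% from the product of their shares. Itga5 and Itgb1 were likewise seen together in 38.3%, 25.4%, 54.5% and 21.4% of cells, with products of 38.2%, 25.5%, 54.3% and 21.0%. Itgb1 had UMIs in 91.1% to 97.5% of thinned cells, so these shares could hardly depart from the products. Itgav and Itgb5 were freer to depart. They were seen together in 15.7%, 14.7%, 19.8% and 11.7% of cells, with products of 14.3%, 13.7%, 19.6% and 12.3%. Whether the subunits of a pair keep to the same cells was not tested.

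**Figure D5:**
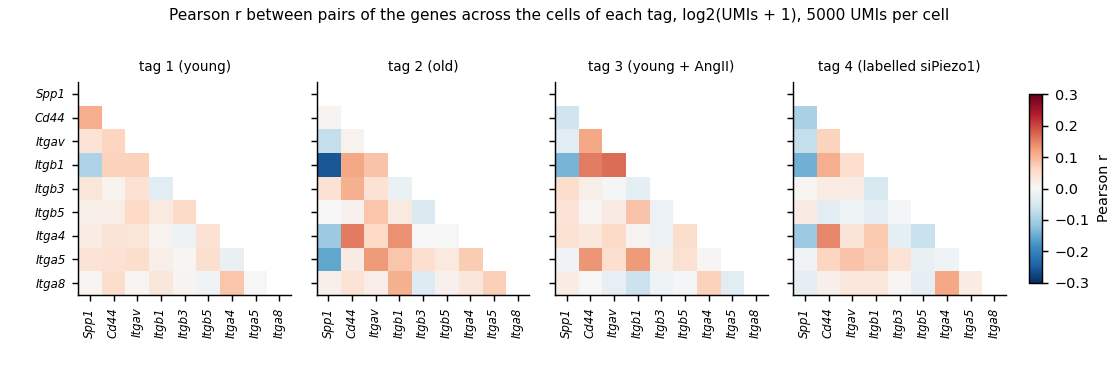
Pearson r of log2(UMIs + 1) between pairs of the 9 genes across the thinned cells of each tag (blue below 0, red above 0, scale from −0.3 to 0.3). Spp1 with Itgb1 is blue in all 4 tags, down to −0.257 in tag 2, and most other pairs lie near 0.

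The genes whose pattern across cells was most like that of Spp1, by the median of r over the 4 tags among 3287 genes, were Cck (0.291), Serpine2 (0.240), Grem1 (0.236), Ank3 (0.199) and Mcpt8 (0.199). Those least like it were Lox, the collagen and elastin crosslinking enzyme (−0.328), Prss23 (−0.314) and Tagln, the contractile gene of smooth muscle (−0.250). Cck was positive in each tag, from 0.206 in tag 4 to 0.375 in tag 1. Tagln was negative in each, from −0.384 in tag 2 to −0.065 in tag 1. For Cd44 the most alike were Tnc (0.218), the matrix protein tenascin-C, Thbs1 (0.210), the matricellular protein thrombospondin-1, Lingo2 (0.184), Lpp (0.179) and Hmga2 (0.170). The least alike were Ifitm3 (−0.193), Mt1 (−0.138) and Fth1 (−0.130). Among all genes compared with Cd44, Itgb1 held place 40, Itgav 233 and Itga5 360, whereas Itgb5 held place 1561 and Spp1 place 2688.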

How the data were processed

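The authors deposited an unfiltered matrix of UMI counts (32285 genes and 4 hashtags by 2472397 barcodes), written by Cell Ranger 4 per the file headers. The sources used here name no genome build for it. The cell minimum was the 99th percentile of the UMIs of the 10000 deepest barcodes, divided by 10. Tag cutoffs of 36, 52, 61 and 41 UMIs came from HTODemux at quantile 0.99 (Seurat 5.3.0, R 4.3.3). Levels are CPM with exact Poisson intervals, ratios have exact binomial intervals, and both cover counting error only. Tested on simulated data for 8462 genes, 95.6% of the intervals held the true ratio for tags 2 and 1, 95.7% for tags 3 and 1 and 95.4% for tags 4 and 2. The simulated counts were drawn with the Poisson error that the intervals assume, so this checks only the calculation. It leaves out the spread between cells and between cultures. Cells are not replicates, so no p-value is given. Clustering used 2000 variable genes less the 5 that were among the 9 (Spp1, Cd44, Itga4, Itga5 and Itga8), 30 components, 20 neighbours and resolution 0.8. Scrublet (scanpy 1.11.5, expected rate 0.1) called 3058 cells doublets (23.4%), which were kept except where stated. The genes and gene lists were chosen with earlier results of these data known. Named are the 9 genes, the extremes of each list among genes with at least 10 CPM, the 5 genes most like and the 3 least like Spp1 and Cd44 among genes with at least 50 CPM, and genes that check the labels. Alternatives were other tag rules, other cell filters, thinning, mean CPM of single cells, cells by sex-linked transcripts, free RNA and dividing cells. HTODemux naming at 0.99, levels within clusters, spread relative to the level and correlations in cells with only Y-linked UMIs were added after the data had been seen. Other measurements of the study were not analysed here.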

Additional observations from a re-analysis of the deposited data

Results flagged for a closer look

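The ratio of Spp1 between AngII-treated and untreated young cells (tag 3 to tag 1) went opposite ways in cells sorted by sex-linked transcripts. It was 2.01 in cells with Y-linked but no Xist UMIs (5701 against 2835 CPM) and 0.882 in cells with Xist but no Y-linked UMIs (6525 against 7400 CPM). The latter rest on 94 cells of tag 3 and 154 of tag 1, which are 6.27% and 4.90% of these tags. Cells of this kind made up 1.19% of cluster 2 and 0.862% of cluster 7, which together held 72.3% of tag 1. Most of the 154 cells thus lay in other clusters, and their 7400 CPM was near the 8229 CPM of tag 2. How many of them carry a wrong tag or are doublets was not tested. With 1 culture per tag, the difference between the ratios was not tested. Y-linked and Xist UMIs were not used to name any tag.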

How the results depend on the processing

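Of 78 values of Spp1 and Cd44 ratios under 13 alternatives, 35 stayed within the counting interval of the reported value, 41 left it on the same side of 1 and 2 crossed 1. For 1 of the 2 (Cd44, tag 4 to 2) the reported interval itself held 1. The ratios are given in the order tag 2 to 1, tag 3 to 1 and tag 4 to 2 where all were moved. For Spp1 they were 2.63, 1.83 and 1.11 with HTODemux at quantile 0.95, 3.17, 2.16 and 1.16 without cells called doublets, 2.72, 1.76 and 1.11 after thinning to 5000 UMIs, and 2.89, 1.84 and 1.10 as means of single-cell CPM. They were 2.77, 2.01 and 1.38 in cells with Y-linked and no Xist UMIs and 1.14, 0.882 (across 1) and 1.05 in cells with Xist and no Y-linked UMIs. The Spp1 ratios of tag 2 to 1 and tag 3 to 1 were 2.48 and 1.82 where the own tag had at least 3 times the next tag, 2.32 and 1.64 in cells with at least 5000 UMIs, 2.51 and 1.74 with free RNA subtracted, and 2.83 and 1.75 without cells with a dividing cell marker. Spp1 in tag 4 to 2 was 1.14 with HTODemux naming at 0.99, chosen after seeing the data. For Cd44 the 3 ratios were 1.502, 1.97 and 0.943 without doublets, 1.10, 1.31 and 0.931 in cells with Xist and no Y-linked UMIs, and 1.398, 1.84 and 0.924 without dividing cells. Cd44 in tag 2 to 1 was 1.24 under the 3 times rule, 1.24 after thinning and 1.42 in cells with only Y-linked UMIs. Cd44 in tag 3 to 1 was 1.61 at 5000 UMIs and 1.84 as a mean of single-cell CPM, and in tag 4 to 2 it was 1.06 under the 3 times rule and 0.933 in cells with only Y-linked UMIs. Of 273 values of the other 7 genes, 241 stayed, 25 left the interval on the same side of 1 and 7 crossed 1. Of these 7, 2 had a reported interval clear of 1, both in cells with Xist and no Y-linked UMIs: Itgb1 in tag 2 to 1 at 1.01 and Itga4 in tag 3 to 1 at 1.22. The other 5, whose reported interval held 1, were Itgb3 in tag 2 to 1 under the 3 times rule (0.877), Itga8 in tag 2 to 1 in cells with Xist and no Y-linked UMIs (0.627), Itga8 in tag 4 to 2 after thinning (0.632) and in cells with only Y-linked UMIs (0.543), and Itga4 in tag 4 to 2 in the latter cells (0.446). Of 8 variance values 7 stayed within 1.5 times, and of 80 correlations 78 moved by less than 0.1. The exceptions were Spp1 in tag 1 at 3000 UMIs (14.7) and, in cells of tag 2 with only Y-linked UMIs, Cd44 with Itgb1 (0.274) and Itgb1 with Itga5 (0.206). The variance measure grows with the level, which thinning lowers. Several of the correlations are themselves near 0.1, so that margin is wide. The 2 moved correlations of tag 2 rest on at most 97 cells, against 476 for the reported values. Why they moved was not tested. No paired analysis was possible because the 4 tags carry no replicate numbers, and with 1 culture per tag no culture could be left out. Itgb3, Itga4 and Itga8, at under 10 CPM in the pool, are limited by depth.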

Other observations

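The 5307 cells without a tag and the 1068 cells with several tags entered no comparison. Cells without a tag held Itga4 at 10.6 CPM, Itga5 at 103 CPM, Itgb1 at 650 CPM and Itga8 at 6.20 CPM, each between the lowest and the highest tag. The same held for Cd44 and Itgb3. Itgav (151 CPM) and Itgb5 (53.1 CPM) lay below the lowest tag, tag 4 (155 and 55.6 CPM). Spp1 (9237 CPM) lay just above the highest, tag 4 (9233 CPM). For these genes the intervals overlapped that of tag 4. Cells with several tags held Spp1 at 5905 CPM, Cd44 at 438 CPM, Itgav at 196 CPM and Itgb1 at 728 CPM.

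In cluster 6, led by Actg2 and Cnn1, the 84 cells of tag 4 held Itga4 at 45.6 CPM (42 UMIs, 32.9 to 61.6) and the 73 cells of tag 2 at 22.9 CPM (21 UMIs, 14.2 to 35.0), a ratio of 1.99 (1.15 to 3.54). The Itga4 ratio of these tags was 1.60 in cluster 0 (1.03 to 2.59), 1.05 in cluster 1, 0.789 in cluster 4 and 1.04 over all cells. The value of cluster 6 is 1 of many ratios within clusters and was named after they had been seen. In cluster 9, of which 282 of 433 cells carried tag 4, Itga4 was at 2.06 CPM in tag 4 (5 UMIs).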
